A study of Homo sapiens with 6 samples.

Results

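Histone deacetylases of class I (HDAC1, HDAC2, HDAC3 and HDAC8), the single class IV enzyme HDAC11, and the corepressor scaffolds NCOR1, RCOR1, BCOR and SIN3A were followed in Toledo, an established human cell line of diffuse large B cell lymphoma. These 9 genes were taken by symbol, through their gene identifiers, and each of the 9 was found among the 18278 genes of the expression table. All 9 passed the filter on low values that left 16048 genes for testing. Messenger RNA had been sequenced from 3 samples grown for 6 days with 5 uM TP-064, an inhibitor of the arginine methyltransferase CARM1, and from 3 samples grown for 6 days with the solvent DMSO. The study asks how CARM1 inhibition acts on lymphomas that carry mutated CREBBP or EP300, which encode acetyltransferases, and the labels do not give the genotype of Toledo or say whether replicates were separate cultures. The p-values therefore measure the spread between these samples only, which may be technical.

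Deacetylases remove acetyl groups from lysines of histones and other proteins, the reverse of the reaction of CREBBP and EP300. HDAC1 and HDAC2 are close paralogs that share the same complexes, NuRD, SIN3, CoREST and MiDAC, while HDAC3 is the enzyme of the complex built on NCOR1. SIN3A and RCOR1 are the scaffolds of the SIN3 and CoREST complexes. BCOR is a corepressor that, like NCOR1, binds BCL6, the repressor of germinal centre B cells. HDAC8 acts without such a complex and deacetylates the cohesin subunit SMC3, and HDAC11 removes long fatty acyl groups more efficiently than acetyl groups.

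The 6 libraries held 41354131 to 48360867 reads assigned to listed genes. Values are normalized read counts, reads per gene over the size factor of each sample. The TP-064 libraries correlated less closely with one another where replicate 3 was included (0.9889 and 0.9901 on the log scale) than replicates 1 and 2 did (0.995), and the DMSO pairs each reached 0.995, so results are given with this library and were recomputed without it. All 7 B cell markers were present, at a summed 101883 to 109847 normalized read counts in TP-064 samples and 106428 to 108402 in DMSO samples, but single markers differed. MS4A1 (CD20) lay at 18335 to 20504 after TP-064 and 9853 to 10921 after DMSO, CD22 at 280 to 334 after TP-064 and 1634 to 1840 after DMSO, and CD79A at 7305 to 8311 after TP-064 and 11147 to 12361 after DMSO. Of 6 T cell markers only TRAC was listed, at 83.1 to 90.0 after TP-064 and 24.9 to 39.8 after DMSO, and of 6 myeloid markers 3 were listed, summing to 71.2 to 99.5 after TP-064 and 34.6 to 65.6 after DMSO. Of the myeloid markers CSF1R was higher after TP-064 (49.5 to 75.2, against 6.49 to 18.9 after DMSO), CD14 was lower (3.96 to 8.74, against 10.8 to 20.9) and LYZ overlapped (12.2 to 18.3, against 17.3 to 25.8). Of 7 epithelial, stromal and erythroid markers 2 were listed, summing to 144 to 155 after TP-064 and 286 to 315 after DMSO. Most of this sum was COL1A1, which was lower after TP-064 (135 to 137, against 273 to 305), while KRT8 overlapped (8.12 to 17.8, against 2.16 to 15.9). The part of such RNA in the results was not tested.

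Promoter windows of 4 starts are shown first, those of the paralogs HDAC1 and HDAC2, of which only HDAC2 was called, of HDAC11, which had the largest change, and of the downstream start of SIN3A, the 1 window among the members that held an E2F motif. Each runs from 250 bases before to 50 bases after a RefSeq transcription start on GRCh38.p14, 5′ to 3′ on the strand of the gene, at chr1:32291833-32292132 on the plus strand for HDAC1, chr6:113971099-113971398 on the minus strand for HDAC2, chr3:13480056-13480355 on the plus strand for HDAC11 and chr15:75451641-75451940 on the minus strand for SIN3A. Capitals mark matches on either strand to any of 8 motifs, which may overlap: E2F (TTTNNCGC), CRE (TGACGTCA), the NRF1 motif, the CCAAT box (CCAAT), the GC box (GGGCGG), the E-box (CACGTG), ETS (CCGGAAGT) and CHR (TTTGAA).
HDAC1: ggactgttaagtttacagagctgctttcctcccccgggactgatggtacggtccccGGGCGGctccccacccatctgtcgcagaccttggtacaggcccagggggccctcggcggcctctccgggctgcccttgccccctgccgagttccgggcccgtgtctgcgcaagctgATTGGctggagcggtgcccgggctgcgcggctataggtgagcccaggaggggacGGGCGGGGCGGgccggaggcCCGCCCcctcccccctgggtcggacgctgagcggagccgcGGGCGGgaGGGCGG
HDAC2: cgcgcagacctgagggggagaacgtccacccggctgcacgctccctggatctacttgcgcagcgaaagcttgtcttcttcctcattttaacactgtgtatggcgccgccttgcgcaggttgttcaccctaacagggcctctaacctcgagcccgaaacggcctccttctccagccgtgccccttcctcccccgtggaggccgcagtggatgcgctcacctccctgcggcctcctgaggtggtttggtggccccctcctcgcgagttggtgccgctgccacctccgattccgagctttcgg
HDAC11: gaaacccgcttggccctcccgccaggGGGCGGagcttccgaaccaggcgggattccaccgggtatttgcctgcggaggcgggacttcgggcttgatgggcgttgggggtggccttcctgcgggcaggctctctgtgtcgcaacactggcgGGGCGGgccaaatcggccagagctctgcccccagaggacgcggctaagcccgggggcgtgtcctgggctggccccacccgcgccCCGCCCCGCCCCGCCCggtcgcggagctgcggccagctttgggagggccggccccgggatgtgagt
SIN3A: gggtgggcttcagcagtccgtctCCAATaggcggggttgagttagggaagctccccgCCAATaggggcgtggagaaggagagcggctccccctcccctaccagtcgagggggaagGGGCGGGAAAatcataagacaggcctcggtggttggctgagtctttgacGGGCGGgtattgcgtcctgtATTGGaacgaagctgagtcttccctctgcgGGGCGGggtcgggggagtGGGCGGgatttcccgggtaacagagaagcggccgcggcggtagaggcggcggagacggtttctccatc
The HDAC1 window held 6 GC boxes and 1 CCAAT box and the HDAC11 window 5 GC boxes, while the HDAC2 window held none of the 8 motifs. GC boxes occur in 45.0% and CCAAT boxes in 34.6% of the 35116 RefSeq windows of this length. The SIN3A window held 1 E2F match, 3 CCAAT boxes and 4 GC boxes, and the E2F motif occurs in 6.89% of all windows. All 9 members matched RefSeq windows, with 2 starts each for NCOR1, BCOR and SIN3A. Among the windows not printed, HDAC3 held 3 GC boxes, RCOR1 6 GC boxes and 1 CCAAT box, and BCOR 1 E-box at its upstream start. The downstream start of BCOR held 2 GC boxes and 1 CCAAT box, and the upstream start of SIN3A 1 GC box and 1 CCAAT box. At its downstream start NCOR1 held 1 CCAAT box and 1 CHR match. E-boxes occur in 7.26% and CHR matches in 15.2% of all windows. HDAC8 and the upstream start of NCOR1 held none of the motifs, which says only that these letters are not in these windows.

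HDAC11 rose after TP-064 and 5 members fell, while 3 did not pass the test. The 5 that fell were HDAC2, SIN3A, RCOR1, BCOR and, by the smallest amount, HDAC3. HDAC1, HDAC8 and NCOR1 were not called. A gene was called at a limma adjusted p under 0.05, with Benjamini-Hochberg adjustment over all 16048 genes. Across all tested genes 65.1% were called, 31.9% higher and 33.3% lower, so a call of 6 of 9 members is near the background. The values of the groups did not overlap for 69.1% of all genes and for 6 of the 9 members. Against a null of a 1.2-fold change, 34.8% of all genes passed, and 4 members did: HDAC11, HDAC2, SIN3A and RCOR1. The median log2 fold change, TP-064 minus DMSO, was -0.14 over the 9 members and 0.01 over all tested genes. Without TP-064 replicate 3, HDAC11 was at 2.21, HDAC2 at -0.59, SIN3A at -0.54, RCOR1 at -0.50, BCOR at -0.24 and HDAC3 at -0.11, each still called, and HDAC1, HDAC8 and NCOR1 were not called. In bulk RNA, fewer cells that express a gene and less of its RNA per cell cannot be told apart.

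**Figure D1:**
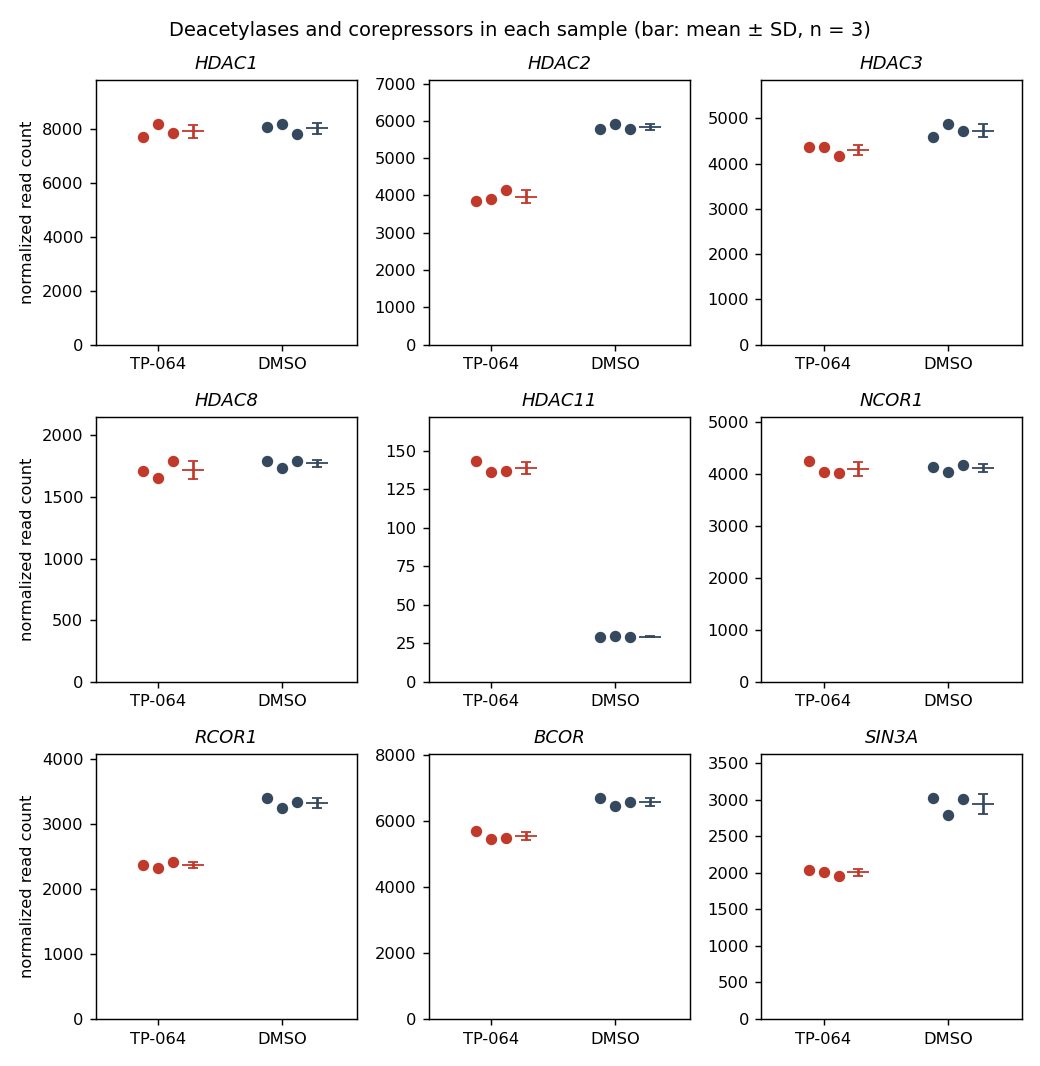
Normalized read counts of the 9 members in each of the 3 TP-064 samples (left, red) and 3 DMSO samples (right, dark blue), with the mean ± SD beside the points and each vertical axis starting at 0. HDAC11 was higher in every TP-064 sample, HDAC2, SIN3A, RCOR1, BCOR and HDAC3 were lower, and the groups overlapped for HDAC1, HDAC8 and NCOR1.

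HDAC1, the most abundant member per length, lies on chromosome 1 from 32292086 to 32333635 (plus strand, GRCh38). It had 7701, 8188 and 7874 normalized read counts in TP-064 replicates 1, 2 and 3 and 8062, 8195 and 7822 in DMSO replicates 1, 2 and 3. The lowest value was in a TP-064 sample, but the ranges of the groups overlapped. The difference in means on the log2 scale, TP-064 minus DMSO, was -0.02 (SE 0.04, limma adjusted p = 0.655), with a 95% interval of -0.10 to 0.06. With scaling to library size alone, which moved the median of all genes to 0.13, HDAC1 changed sign and was called, at 0.10 (limma adjusted p = 0.00934), a value below that median.

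HDAC2, on chromosome 6 from 113933028 to 114011308 on the minus strand, had 3845, 3896 and 4158 normalized read counts in the TP-064 samples and 5768, 5918 and 5793 in the DMSO samples. Every TP-064 sample lay below every DMSO sample, and the mean was 31.9% lower. The fitted log2 fold change was -0.56 (SE 0.04, limma adjusted p = 5.43e-09), and of all tested genes 32.1% changed by more. Within each sample the HDAC1 reads were 2.003, 2.102 and 1.894 times the HDAC2 reads after TP-064, against 1.398, 1.385 and 1.350 times after DMSO. The ratio is not corrected for length, so only its change is read. It was 1.45 times as high after TP-064, a difference in the log2 ratio of 0.54 (n = 3 each, exact two-sided permutation p = 0.1, the smallest that 3 against 3 allows, and 0.1 after adjustment over 6 pairs). A ratio within a sample does not depend on the scaling between samples. Of the 50-base stretches in the transcripts of each gene, 0.212% for HDAC1 and 0.0127% for HDAC2 also occur in another gene of the GENCODE 29 transcripts.

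HDAC3, on chromosome 5 from 141620876 to 141636870 on the minus strand, had 4367, 4380 and 4166 normalized read counts after TP-064 and 4590, 4880 and 4715 after DMSO. The groups did not overlap, with the highest TP-064 sample below the lowest DMSO sample. HDAC3 fell by 0.14 on the log2 scale (SE 0.04, limma adjusted p = 0.00519). It was at -0.013 and not called with scaling to library size alone (limma adjusted p = 0.756).

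HDAC8, on chromosome X from 72329516 to 72573199 on the minus strand, had 1712, 1653 and 1791 normalized read counts after TP-064 and 1791, 1736 and 1789 after DMSO. The highest samples of the groups were level and the ranges overlapped. Its log2 fold change of -0.04 (SE 0.04) did not pass the test (limma adjusted p = 0.389), with a 95% interval of -0.14 to 0.05, and it was at 0.08 and not called with scaling to library size alone. Cohesin, the complex that holds its substrate SMC3, is described with its regulators after the corepressor lists. Of the 50-base stretches of HDAC8 transcripts 5.18% occur in another gene, the highest share among the members.

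HDAC11, on the plus strand of chromosome 3 (13479724 to 13506424), had 143, 137 and 137 normalized read counts in the TP-064 samples and 29.1, 29.8 and 29.2 in the DMSO samples. These values stand for 164, 138 and 135 reads after TP-064 and 28, 30 and 27 reads after DMSO. Each TP-064 library held several times the reads of any DMSO library. Summed over 3 libraries the reads came to 437 after TP-064 (exact 95% Poisson interval 397 to 480) and 85 after DMSO (67.9 to 105), intervals that cover counting error only. The log2 fold change was 2.20 (SE 0.15, limma adjusted p = 5.50e-09), or 4.61-fold, with a 95% interval of 1.88 to 2.53. Of all tested genes 1.36%, 219 in number, changed by more in either direction, while 6.51% were called at least 2-fold higher and 6.56% at least 2-fold lower. HDAC11 was the 1 member with a change of at least 2-fold. No 50-base stretch of its transcripts occurs in another gene, and none of its exons overlaps an exon of another listed gene.

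Even after TP-064 HDAC11 remained the lowest of the 9 members per length. Against HDAC8, which did not pass the test, its share of reads changed in each sample. The HDAC8 reads were 11.9, 12.1 and 13.1 times the HDAC11 reads after TP-064, against 61.6, 58.2 and 61.3 times after DMSO (exact two-sided permutation p = 0.1, the smallest possible). The genes whose log2 values followed those of HDAC11 most closely over the 6 samples were DIP2A, PPFIBP2 and TEC, a tyrosine kinase of lymphocytes, with Pearson correlations of at least 0.99988 among 12165 protein-coding genes. The 6 samples fall into 2 groups, and 938 genes lay above 0.99, so the order among them is a description only. TEC had 3557, 3457 and 3499 normalized read counts after TP-064 and 455, 462 and 463 after DMSO.

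**Figure D2:**
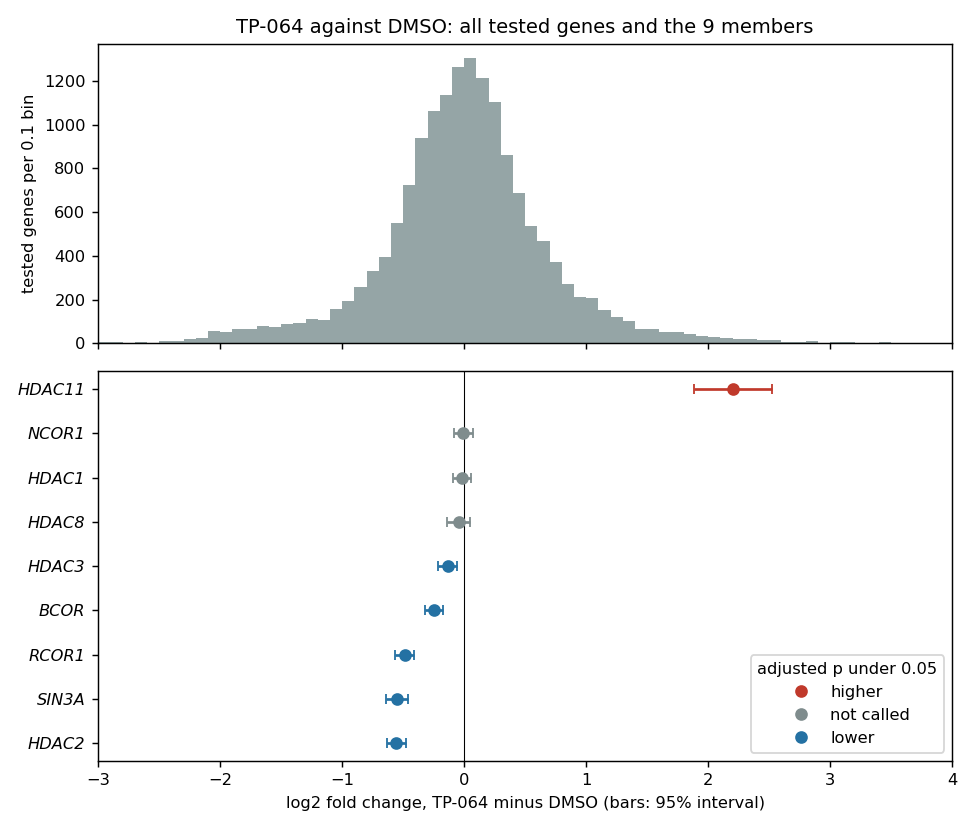
Top, the number of tested genes per 0.1 of log2 fold change (TP-064 minus DMSO), with 11 genes below -3 and 17 above 4 outside the axis. Bottom, the 9 members on the same axis, where bars are 95% intervals from limma and colour gives the call: HDAC11 lies at 2.20 and the other 8 lie between -0.56 and -0.01.

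SIN3A, the scaffold that brings HDAC1 and HDAC2 to DNA-bound repressors such as the MXD proteins, lies on chromosome 15 from 75369379 to 75455842 on the minus strand. It had 2041, 2016 and 1959 normalized read counts after TP-064 and 3023, 2793 and 3016 after DMSO. Every TP-064 sample was below every DMSO sample, by 31.9% on average. On the log2 scale the change was -0.55 (SE 0.04, limma adjusted p = 2.03e-08), and 1.65% of the exon length of SIN3A is shared with a long noncoding RNA of the opposite strand. Its paralog SIN3B rose, with 2729, 2527 and 2504 normalized read counts in TP-064 samples, against 1987, 1925 and 2157 in DMSO samples. Its change was 0.36 on the log2 scale (SE 0.05, limma adjusted p = 1.46e-05). The ratio of SIN3A to SIN3B reads was 0.748, 0.798 and 0.782 after TP-064, against 1.52, 1.45 and 1.40 after DMSO. The log2 ratio differed by -0.91 (exact two-sided permutation p = 0.1, the smallest possible). Per kilobase of annotated exons SIN3B was at 295 ± 14.1 after TP-064 and 230.5 ± 13.7 after DMSO, where SIN3A and SIN3B lay within their spread of each other (SD, n = 3 each).

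RCOR1, the CoREST scaffold that joins HDAC1 or HDAC2 to the lysine demethylase KDM1A (LSD1), lies on the plus strand of chromosome 14 (102592661 to 102730576). It had 2366, 2327 and 2419 normalized read counts after TP-064 and 3398, 3244 and 3332 after DMSO. The groups did not overlap and the mean was 28.7% lower after TP-064. Fitted on the log2 scale this was -0.49 (SE 0.04, limma adjusted p = 2.20e-08). Both paralogs moved the other way. RCOR2 had 503, 520 and 467 normalized read counts after TP-064 and 162, 160 and 188 after DMSO. RCOR2 rose by 1.54 on the log2 scale (SE 0.09, limma adjusted p = 6.87e-10), and RCOR3 rose by 0.18 (SE 0.04, limma adjusted p = 0.000618). The ratio of RCOR1 to RCOR3 reads was 0.983, 0.961 and 0.981 after TP-064, against 1.58, 1.51 and 1.55 after DMSO (exact two-sided permutation p = 0.1, the smallest possible).

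NCOR1, on chromosome 17 from 16029157 to 16218185 on the minus strand, had 4252, 4033 and 4022 normalized read counts after TP-064 and 4134, 4040 and 4183 after DMSO. The DMSO range lay within the TP-064 range. NCOR1 was not called, at -0.01 (SE 0.04, limma adjusted p = 0.893) with a 95% interval of -0.08 to 0.07. With scaling to library size alone NCOR1 changed sign and was called, at 0.12 (limma adjusted p = 0.0145), again below the median of 0.13 that all genes then had. HDAC3 reads were 1.03, 1.09 and 1.04 times those of NCOR1 after TP-064, against 1.11, 1.21 and 1.13 times after DMSO. The log2 ratio differed by -0.13 (exact two-sided permutation p = 0.1, the smallest possible). NCOR1 has pseudogene copies, but few of its 50-base stretches, 1.10%, occur in another gene. Of its exon length 2.08% is shared with PIGL on the opposite strand, a gene with 169 to 190 normalized read counts after TP-064 and 168 to 201 after DMSO.

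BCOR, on chromosome X from 40049815 to 40177329 on the minus strand, had 5688, 5443 and 5484 normalized read counts after TP-064 and 6688, 6464 and 6567 after DMSO. The groups did not overlap and the mean was 15.7% lower after TP-064. BCOR fell by 0.25 on the log2 scale (SE 0.03, limma adjusted p = 1.35e-05), a change that did not pass against a null of 1.2-fold. BCORL1, its paralog, had 520, 325 and 358 normalized read counts after TP-064 and 349, 263 and 325 after DMSO. TP-064 replicate 1 stood above the other samples, and BCORL1 was not called, at 0.34 (SE 0.14, limma adjusted p = 0.0518). It was at 0.14 without that sample and was called without TP-064 replicate 2 (0.47), TP-064 replicate 3 (0.41) or DMSO replicate 1 (0.42). It was also called with scaling to library size alone (0.46), with TMM scaling in limma (0.37) or edgeR (0.40) and with both other filters (0.34), so its call depends on the processing. The ratio of BCOR to BCORL1 reads was 10.9, 16.7 and 15.3 after TP-064, against 19.2, 24.5 and 20.2 after DMSO (exact two-sided permutation p = 0.1, the smallest possible).

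**Figure D3:**
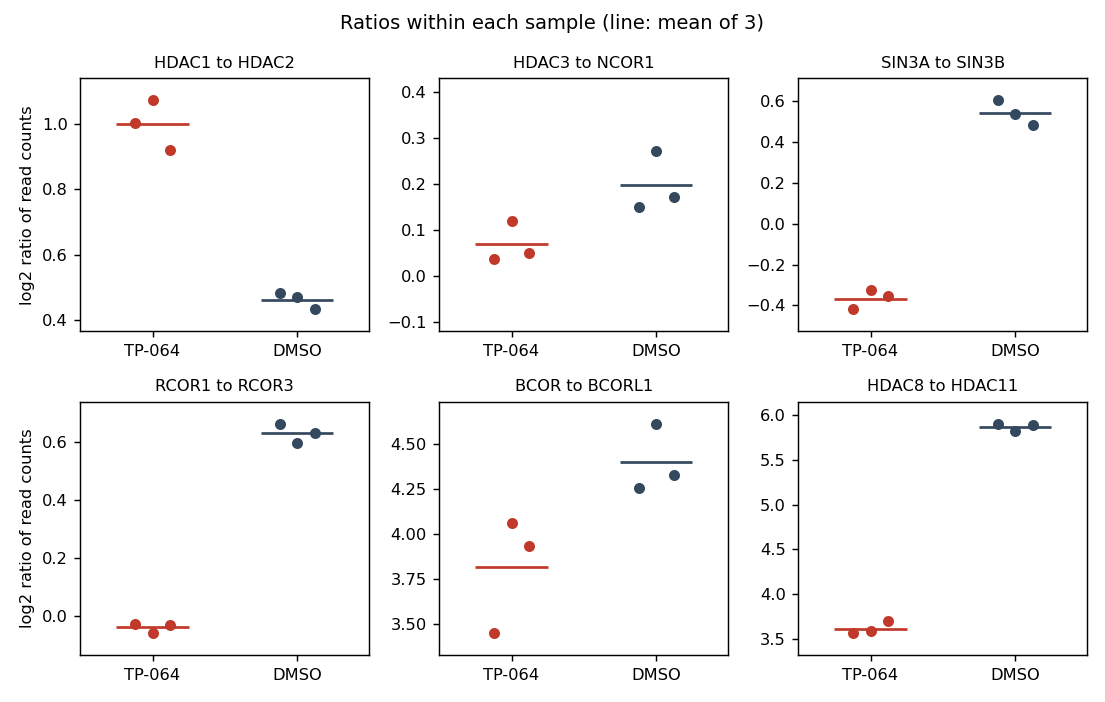
Log2 ratio of read counts of 6 fixed pairs within each TP-064 sample (left, red) and DMSO sample (right, dark blue), with a line at the mean of 3; vertical axes differ between panels and do not start at 0. The groups do not overlap in any of the 6 pairs, and the ratio of HDAC1 to HDAC2 alone is higher after TP-064; ratios are not corrected for length.

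Levels of different genes were compared per kilobase of all annotated exons of the gene. On this scale HDAC1 was highest, at 1999 ± 62.4 in TP-064 samples and 2025 ± 47.7 in DMSO samples (SD of 3 samples a group, as for the other members). HDAC3 followed at 929 ± 25.9 after TP-064 and 1021 ± 31.5 after DMSO, then BCOR at 648 ± 15.3 after TP-064 and 769 ± 13.1 after DMSO, and RCOR1 at 382 ± 7.42 after TP-064 and 536 ± 12.5 after DMSO. HDAC2 was next in DMSO samples, and NCOR1 and HDAC2 lay within their spread of each other after TP-064, at 266 ± 8.45 for NCOR1 and 257 ± 10.8 for HDAC2. After DMSO the level of NCOR1 was 267 ± 4.71 and that of HDAC2 377 ± 5.20. SIN3A was at 161 ± 3.37 after TP-064 and 236 ± 10.5 after DMSO, HDAC8 at 74.8 ± 3.02 after TP-064 and 77.1 ± 1.36 after DMSO, and HDAC11 at 26.3 ± 0.718 after TP-064 and 5.56 ± 0.0765 after DMSO. The place of HDAC8 depends on the length used, since its annotated exons span 22986 bases in all. Per kilobase of the reference transcript, an alternative chosen after the data were seen, HDAC8 was the third highest, at 1358 after TP-064 and 1400 after DMSO. The reference length was the median over the best-ranked annotated transcripts of a gene, 1265.5 bases over 6 transcripts for HDAC8. On that scale HDAC2, SIN3A and RCOR1 lay close together, between 397 and 412 after TP-064 and between 578 and 590 after DMSO, differences within the larger SD of neighbouring genes.

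**Figure D4:**
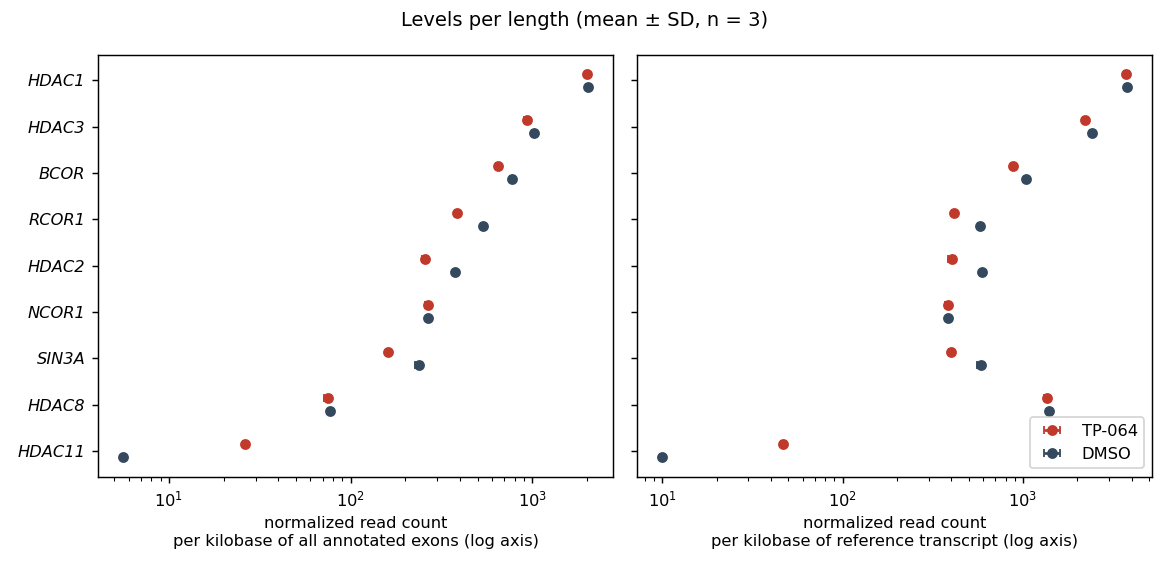
Mean ± SD (n = 3) of normalized read counts per kilobase, on log axes, for the 9 members after TP-064 (red, upper) and DMSO (dark blue, lower), divided by all annotated exons (left) or by the reference transcript (right). HDAC1 and HDAC3 lead and HDAC11 is lowest on both scales, while HDAC8 in TP-064 samples is at 74.8 on the left and at 1358 on the right.

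The complexes that use HDAC1 and HDAC2 were then read from lists of their subunits, as counts beside the 31.9% of all genes called higher and 33.3% called lower. A gene said to have risen or fallen was called, and changes are on the log2 scale. In NuRD, a remodelling and deacetylase complex, 11 of 15 tested genes fell and 1 rose, with a median of -0.22. RBBP7, a histone-binding subunit shared with SIN3 and with Polycomb, was 55.8% lower, with 8677, 9271 and 8995 normalized read counts in TP-064 samples, against 20144, 20699 and 20126 in DMSO samples. MBD2, which binds methylated DNA, fell by 0.43 (SE 0.04), and CDK2AP1 rose by 0.17 but was not called without TP-064 replicate 2 (0.12) or DMSO replicate 2 (0.12). With scaling to library size alone 7 NuRD genes were lower and 2 higher. Under that scaling 4158 of all 16048 tested genes were lower and 6653 higher, the background for every list count given with it. In SIN3, 12 of 20 genes fell and 4 rose, with a median of -0.16. SAP30, which stabilises the complex, fell by 0.81 (SE 0.04) and ING2, which reads methylated histone H3, fell by 1.03 (SE 0.07), while SAP30L, a paralog of SAP30, rose by 0.26 (SE 0.04) beside SIN3B. Leaving out HDAC1, HDAC2 and SIN3A, 10 of 13 NuRD genes and 10 of 17 SIN3 genes fell. RBBP7, MBD2, CDK2AP1, SAP30, ING2 and SAP30L each had a limma adjusted p between 3.77e-13 and 0.0154.

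CoREST moved both ways, with 5 of 12 genes higher, 3 lower and a median of 0.03 (7 higher and 3 lower with scaling to library size alone). Beside RCOR2, ZMYM2 rose by 0.47 (SE 0.04) and HMG20B by 0.33 (SE 0.05), and besides RCOR1 and HDAC2 the gene that fell was GSE1 (-0.68), chosen after its value was seen. HMG20B shares 9.57% of its exon length with MFSD12 on the opposite strand. MFSD12 had 1497 to 1660 normalized read counts after TP-064 and 987 to 1026 after DMSO. KDM1A, the demethylase of the complex, was singled out after its value was seen and had 12534, 12169 and 12208 normalized read counts in TP-064 samples, against 13100, 12912 and 12852 in DMSO samples (-0.07, limma adjusted p = 0.0528, not called). MiDAC and the MIER complexes had 2 genes higher and 2 lower of 5. DNTTIP1, the dimeric scaffold of MiDAC, fell by 0.31 and MIER2 fell by 0.35, MIDEAS rose by 0.29 and MIER3 by 0.08, and MIER1 was not called at -0.09 but was called at -0.14 without TP-064 replicate 3. The call of MIER3 rested on a limma adjusted p of 0.0481 and was lost without any of 4 of the samples, at values from 0.06 to 0.10. The median of this list was -0.09, and 0.03 with scaling to library size alone.

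Of 5 genes of the NCOR1 complex 3 fell, HDAC3 among them, and 0 rose, with a median of -0.14. TBL1X, which exchanges corepressors for coactivators, fell by 0.45 (SE 0.06), with 694, 803 and 694 normalized read counts in TP-064 samples, against 955, 1025 and 1008 in DMSO samples, and its paralog TBL1XR1 fell by 0.14. TBL1XR1 was at -0.02 and not called with library size scaling, under which 1 gene of this list, TBL1X, was lower and 1, NCOR1, higher. GPS2, a further subunit, had 48.1, 40.6 and 123 normalized read counts after TP-064 and 54.0, 39.8 and 35.7 after DMSO. The high value was in TP-064 replicate 3, and GPS2 was not called (0.54, limma adjusted p = 0.158), with 0.05 without that sample and 0.84 with a call without TP-064 replicate 2. GPS2 shares 7.80% of its exon length with EIF5A on the opposite strand.

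In the BCOR complex, a form of Polycomb complex 1, 6 of 10 genes fell and 1 rose, with a median of -0.15. The falls were led by RYBP (-0.60, SE 0.04), which had 2264, 2325 and 2518 normalized read counts in TP-064 samples, against 3482, 3557 and 3713 in DMSO samples, and by its paralog YAF2 (-0.56, SE 0.05). KDM2B, which brings the complex to CpG islands, fell by 0.46 (SE 0.04). PCGF1, its defining subunit, rose by 0.17 and was not called without TP-064 replicate 3 (0.14) or DMSO replicate 1 (0.16). With TMM scaling 5 genes of this list were lower and 3 higher, and with scaling to library size alone 4 were lower and 3 higher. Under TMM scaling 5074 of all 16048 tested genes were lower and 5467 higher.

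**Figure D5:**
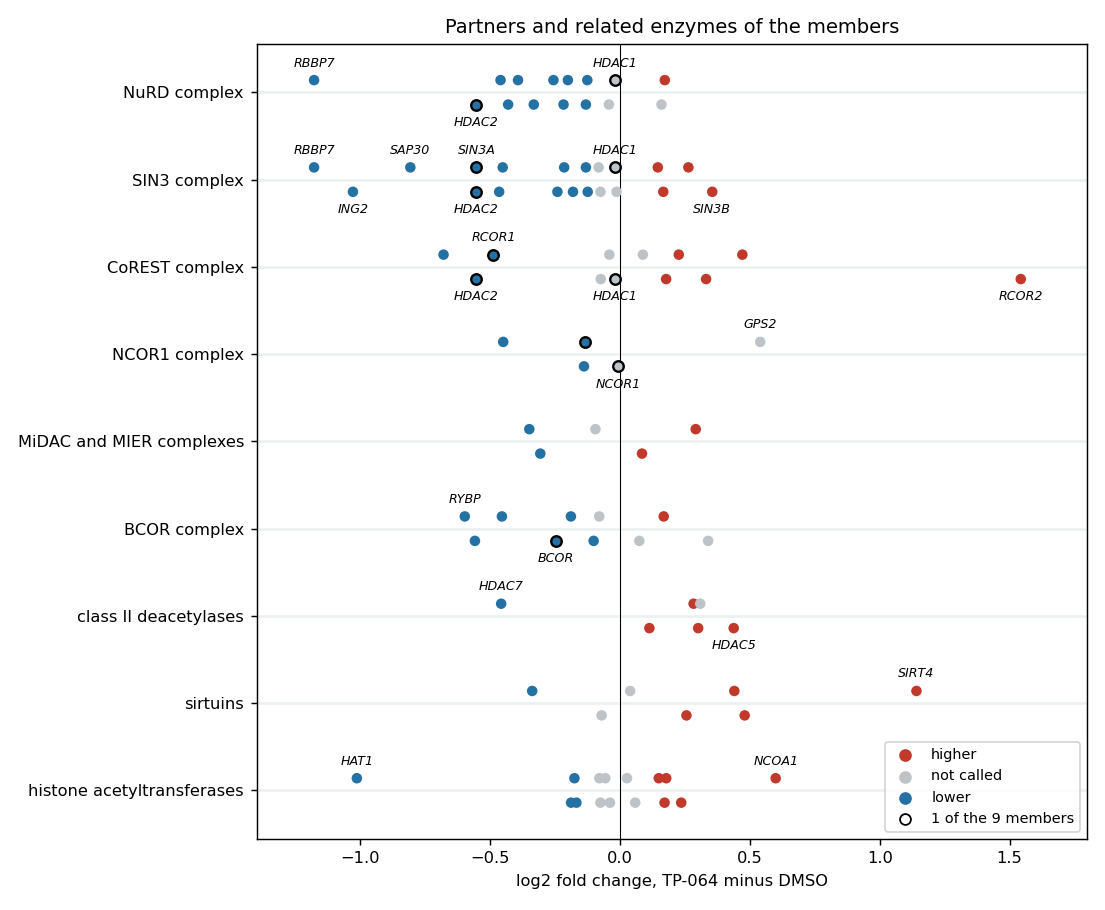
Log2 fold change (TP-064 minus DMSO) of each tested gene of 9 lists, 1 point a gene, coloured by call; the 9 members are ringed where a list holds them. RBBP7, ING2 and SAP30 are the lowest of the SIN3 list, and RCOR2, at 1.54, is the highest gene drawn.

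Other deacetylases rose more often than they fell. Of 6 class II genes 4 rose and 1 fell, with a median of 0.29. HDAC5 rose by 0.44 (SE 0.04), with 8213, 8360 and 7685 normalized read counts in TP-064 samples, against 5859, 5797 and 6253 in DMSO samples, and HDAC4 rose by 0.30, HDAC6, the cytoplasmic tubulin deacetylase, by 0.28 and HDAC9 by 0.11. HDAC7, a class IIa enzyme of lymphocytes, fell by 0.46 (SE 0.04), with 3696, 3684 and 3585 normalized read counts in TP-064 samples, against 5056, 4884 and 5124 in DMSO samples. HDAC10 was not called at 0.31, but was called without TP-064 replicate 3 (0.41) and with scaling to library size alone (0.43), and 55.8% of its exon length overlaps exons of MAPK12 on the same strand. The call of HDAC9 was lost without TP-064 replicate 3 (0.09) or DMSO replicate 1 (0.09). Of the 7 sirtuins, the deacylases that use NAD, 4 rose and 1 fell, with a median of 0.26. SIRT4, a mitochondrial enzyme, rose by 1.14 (SE 0.12), SIRT2 by 0.48, SIRT5 by 0.44 and SIRT3 by 0.26, while SIRT1, a nuclear enzyme, fell by 0.34 (SE 0.04). SIRT6 (0.04) and SIRT7 (-0.07) were not called, and SIRT6 was called at 0.16 with scaling to library size alone.

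Inositol phosphates bind between HDAC1, HDAC2 or HDAC3 and some of their corepressors and raise the activity of these enzymes. Of 8 genes of the kinases that make or extend them, 4 rose and 3 fell, with a median of 0.14. IPMK, which makes the tetrakisphosphate and pentakisphosphate forms, had 1117, 1117 and 1115 normalized read counts in TP-064 samples, against 1105, 1038 and 1203 in DMSO samples, and was not called (limma adjusted p = 0.953). ITPK1 (-0.44), IPPK (-0.16) and PPIP5K2 (-0.12) fell, while ITPKB, which phosphorylates the trisphosphate in lymphocytes, rose by 0.83 (SE 0.04), IP6K2 by 0.45, PPIP5K1 by 0.36 and IP6K1 by 0.28. With scaling to library size alone IPPK and PPIP5K2 were no longer called, PPIP5K2 changed sign, and 4 genes of the list were higher and 1 lower. IPPK shares 72.0% of its exon length with CENPP on the opposite strand, and how the counting treated strands is not stated in the sources used here.

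Of 15 acetyltransferases, the opposing enzymes, 5 were higher and 4 lower, with a median of -0.04. Under library size scaling 7 were higher and 1 lower, with a median of 0.08. HAT1, which acetylates new histone H4 before its deposition, fell by 1.01 (SE 0.04), with 1698, 1754 and 1789 normalized read counts in TP-064 samples, against 3446, 3611 and 3529 in DMSO samples. GTF3C4 fell by 0.19, while NCOA1 rose by 0.60, EP300 by 0.24 and NCOA3 by 0.17. The call of GTF3C4 was lost with scaling to library size alone (-0.07). Of 10 further corepressors 4 rose and 5 fell, with a median of -0.09. Under library size scaling 4 were higher and 3 lower, with a median of 0.03. TRIM28, the corepressor of zinc finger proteins (-0.46), CTBP2 (-0.45) and LCOR (-0.32) fell, and the Groucho homologues TLE4 and TLE1 rose by 0.47 and 0.45. CTBP2 shares 31.2% of its exon length with ZRANB1 on the opposite strand.

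Among DNA-binding repressors that recruit these complexes, 9 of 14 tested genes rose and 4 fell, with a median of 0.19. MXD4, a MAX partner that recruits SIN3 proteins, rose by 1.24 (SE 0.06), with 7059, 6870 and 6387 normalized read counts in TP-064 samples, against 2891, 2598 and 3143 in DMSO samples. CBFA2T3, which binds NCOR proteins, rose by 1.12 and GFI1, which binds RCOR1 through KDM1A, by 0.89. IKZF3 (Aiolos), which associates with NuRD in lymphocytes, fell by 0.86 (SE 0.04) and YY1 fell by 0.20. BCL6, singled out after its value was seen, fell by 0.30 (SE 0.06, limma adjusted p = 0.000325), with 617, 652 and 679 normalized read counts in TP-064 samples, against 786, 840 and 779 in DMSO samples.

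Genes described in B cells as repressed by BCL6 fell more often than they rose, with 11 of 19 tested lower and 3 higher and a median of -0.19 (8 lower and 4 higher with scaling to library size alone). CHEK1, a checkpoint kinase of replicating cells, fell by 2.01 (SE 0.05), CDKN1A, the p21 inhibitor of cyclin-dependent kinases, fell by 1.90 (SE 0.09) and BCL2 fell by 0.59 (SE 0.03). GPR183, a migration receptor, rose by 2.84 (SE 0.10) and CD80, a costimulatory ligand, by 0.66 (SE 0.07). CD80 shares 24.9% of its exon length with TIMMDC1 on the opposite strand. REST, singled out after its value was seen, rose by 0.11 (SE 0.03, limma adjusted p = 0.00948). Of 18 neuronal genes described as repressed through REST and CoREST, 10 were listed and 8 passed the filter on low values, of which 5 rose and 0 fell. STMN3 rose by 2.10 (SE 0.13), with 259, 324 and 238 normalized read counts in TP-064 samples, against 59.2, 67.6 and 61.6 in DMSO samples, and L1CAM rose by 1.09 and SCN3A by 0.77. The 8 tested genes had means above the filter's minimum of 10 in both groups, and the others of the list are not counted here.

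Of 14 genes of cohesin and its regulators, the list that holds HDAC8 and its substrate, 10 fell and 3 rose, with a median of -0.56. CDCA5 (sororin), which protects cohesion in dividing cells, fell by 2.02 (SE 0.04), the ring subunit SMC1A fell by 1.17 (SE 0.03) and the kleisin RAD21 fell by 1.02 (SE 0.03). SMC3, chosen after its value was seen, fell by 0.87 (SE 0.04), with 5254, 5428 and 5695 normalized read counts in TP-064 samples, against 9714, 10074 and 10068 in DMSO samples. WAPL, which releases cohesin from DNA, and the loader MAU2 each rose by 0.23. Each of these genes had a limma adjusted p of 0.000103 or lower, and HDAC8 was the 1 gene of the list that was not called.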

How the data were processed

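The authors deposited 1 table of normalized counts, a signal per gene and sample in which read counts had been divided by a DESeq size factor. The submitters' processing notes name TopHat2 (2.0.10), HTSeq (0.6.0), DESeq (1.18.0) and hg38; the annotation release and strand handling are not stated there. Columns were matched to samples by title. Values were whole multiples of 1 step per column (100% within a tolerance of 0.001), which gave back the reads; those of TP-064 replicate 2 and DMSO replicate 2, whose factors lie near 1, rest on the decimals.

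As the table is normalized, limma 3.58.1 (R 4.3.3, trend option, 4 residual degrees of freedom) was fitted to log2(value + 1) for genes with a mean of at least 10, with Benjamini-Hochberg adjustment and a threshold of 0.05. Such fold changes understate changes of low genes. The fit was tested on simulated data with few changed genes, all at higher levels than HDAC11. That test does not cover changes as widespread as those called here. Ratios of 6 pairs were compared by exact permutation over samples.

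Members, 15 lists and pairs were chosen with earlier results of these data known; 1 gene of a list, with its pair, is not reported here. Named genes were the members, those of the pairs, whole lists of 8 genes or fewer, and from longer lists up to 3 called genes of lowest p in the more frequent direction and up to 2 in the opposite one. Symbols and coordinates come from GENCODE 29 (18214 of 18278 genes matched; MIDEAS is ELMSAN1 there) and promoters from RefSeq. Replicates differed beyond sampling noise (chi-square of 3.06 to 7.63 per degree of freedom). Alternatives were 2 other scalings, 2 pseudocounts, 2 filters, edgeR 4.0.16 with 2 sets of factors, DESeq2 1.42.0, limma-voom, a replicate block, a 1.2-fold null and each replicate left out. Poisson intervals cover counting error only.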

Additional observations from a re-analysis of the deposited data

How the results depend on the processing

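With scaling to library size alone HDAC1 moved to 0.10 and NCOR1 to 0.12, both called as higher, HDAC3 moved to -0.013 and was not called, and PPIP5K2 moved to 0.00262. That scaling moved the median of all genes to 0.13 and the share of higher genes among 10811 calls to 61.5%, against 48.9% of 10449. Against a null of a 1.2-fold change 5592 genes were called, and HDAC3 (-0.14) and BCOR (-0.25) were not. These 5592 genes were 34.8% of all tested genes. In the lists, called genes then numbered 5 of 15 in NuRD, 6 of 20 in SIN3 and 5 of 12 in CoREST. The NCOR1 complex held 1 of 5, MiDAC and MIER 0 of 5 and the BCOR complex 3 of 10. Class II held 2 of 6, HDAC5 higher and HDAC7 lower, so its calls did not lean to higher at this null. The sirtuins held 3 of 7, SIRT2, SIRT4 and SIRT5, all higher. Other corepressors held 4 of 10 and inositol phosphate kinases 3 of 8. DNA-binding repressors held 6 of 14 and acetyltransferases 2 of 15. Of genes described as repressed by BCL6, 9 of 19 were called. Of cohesin and its regulators 9 of 14 were called, and of the neuronal genes 5 of 8. The other 157 member values under alternatives kept their side of the threshold, and direction where called. Without 1 replicate, HDAC11 ran from 2.18 to 2.22, HDAC2 from -0.59 to -0.53, SIN3A from -0.59 to -0.53, RCOR1 from -0.51 to -0.47, BCOR from -0.27 to -0.23 and HDAC3 from -0.16 to -0.11. All 6 pair ratios kept their direction in the 54 values recomputed, and no permutation p in this design could pass the threshold. With the replicate number as a block 10491 genes were called and no member changed its call. Same-numbered samples did not deviate together (correlations of -0.09, 0.07 and -0.08), and not every sample correlated best with its own number. Whether same-numbered samples share a culture or batch is not given by the labels, and these correlations cannot settle it. Under that block BCORL1 was called (limma adjusted p = 0.00401) and MIER3 was not (0.0521).

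Per kilobase of reference transcript, levels after TP-064 and after DMSO were 3729 and 3779 for HDAC1, 402 and 590 for HDAC2, 2197 and 2414 for HDAC3, 1358 and 1400 for HDAC8, 47.0 and 9.92 for HDAC11, 383 and 384 for NCOR1, 412 and 578 for RCOR1, 876 and 1039 for BCOR and 397 and 583 for SIN3A. These levels differ from those per exon length by the length alone. HDAC11 had at most 30 reads in a DMSO library, which limits the precision of its level there.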

Other observations

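TP-064 replicate 3, the library that correlated least with the others, held more reads of several genes that lie opposite subunit genes, a pattern chosen after the values were seen. CTBP1-AS, opposite the corepressor gene CTBP1, had 9.62, 2.97 and 99.5 normalized read counts in TP-064 replicates 1, 2 and 3, against 17.6, 2.98 and 8.65 in DMSO replicates 1, 2 and 3. AC006064.2, opposite the NuRD ATPase gene CHD4, had 12.2, 20.8 and 206 in the TP-064 samples, against 30.1, 16.9 and 14.1 in the DMSO samples. SYNC, opposite RBBP4, a paralog of RBBP7, had 0.874, 1.98 and 32.5 in the TP-064 samples, against 1.04, 3.98 and 0 in the DMSO samples. Among the members, the opposite-strand genes of SIN3A, HDAC2 and NCOR1 held no such value: HDAC2-AS2, for one, had 18.4, 24.7 and 21.3 in the TP-064 samples, against 18.7, 22.9 and 17.3 in the DMSO samples.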
